A study of Mus musculus with 4 samples.

Results

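The 9 genes followed here build the tight junction, the seal between epithelial cells. They encode 6 claudins (Cldn1, Cldn2, Cldn3, Cldn4, Cldn7 and Cldn12), occludin (Ocln), the scaffold protein ZO-1 (Tjp1) and junctional adhesion molecule A (F11r). They were chosen by name from the deposited table, as 9 of its 52192 genes, and all 9 were found. Tight junctions close the space between neighbouring epithelial cells. Claudins form the strands of the junction: some of them, such as claudin-1 and claudin-3, mainly tighten it, while claudin-2 forms a channel for small cations and water. Occludin and JAM-A are membrane partners of the strands, and ZO-1 ties them to the actin cytoskeleton from inside the cell. In the liver these junctions separate the bile canaliculus from the blood side of the hepatocyte.

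RNA was measured in AML12 cells, a mouse hepatocyte line derived from an animal transgenic for transforming growth factor alpha. Cells were infected with lentivirus carrying a control hairpin (shCtrl, 2 libraries) or a hairpin against Safb (shSafb, 2 libraries) and collected 5 days later. The Safb product, known as scaffold attachment factor B, binds both DNA and RNA in the nucleus. All 4 libraries came from cells grown with 0.1 µM dexamethasone, 10% fetal bovine serum and an insulin, transferrin and selenium supplement. The labels name no parental cells without virus, do not say how many hairpin sequences were used, and do not say whether the replicates were separate cultures. P-values therefore measure only the spread between these libraries, which may be technical.

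Values are in TPM, the transcript abundance scaled by gene length and library total, so levels of different genes can be compared. How many reads stand behind a value is unknown, because TPM does not carry it. Each library had 12946 to 13117 genes at 1 TPM or more. Safb fell from 23.6 ± 0.354 to 15.4 ± 0.544 TPM (SD, n = 2 each; log2 change -0.56 ± 0.07 SE, limma adjusted p = 0.00411), so the knockdown was partial in RNA. These libraries do not measure the Safb protein. Of 10 hepatocyte markers, 9 had a mean of at least 1 TPM, and Tat, encoding tyrosine aminotransferase, stayed at or under 0.255 TPM in every library. The hepatocyte markers summed to 9445 to 9490 TPM in shCtrl and 13243 to 13416 TPM in shSafb. Of the 9, 2 were called higher, 2 lower and 5 not called, beside 21.9% of all tested genes called higher and 22.4% lower. The higher sum was that of Trf, the transferrin gene, which went from 2435 ± 24.6 to 6796 ± 26.1 TPM. Without Trf, left out after its values were seen, the sums were 7027 to 7037 TPM in shCtrl and 6465 to 6602 TPM in shSafb. Albumin RNA (Alb) fell from 362 ± 22.7 to 124 ± 3.52 TPM (limma adjusted p = 5.31e-04) and Apoa1 from 56.4 ± 0.0298 to 28.1 ± 0.0423 TPM (8.63e-04). Fgb, a fibrinogen gene, rose from 2.03 ± 0.654 to 7.38 ± 0.29 TPM (limma adjusted p = 0.00473). Of 7 cholangiocyte markers, 6 were also present, with sums of 1671 to 1711 TPM in shCtrl and 1541 to 1606 TPM in shSafb, and Epcam was at 0 in 3 libraries and at 0.112 TPM in shSafb 2. In that list 1 marker was called higher, 3 lower and 2 not called, beside the same shares of all tested genes. Cftr, 1 of the 3 lower, was at 1.68 ± 0.0121 TPM in shCtrl and 0.694 ± 0.0291 TPM in shSafb. It reached a mean of 1 TPM only through the shCtrl libraries, so its call is no independent support. Krt19, a keratin gene, rose from 320 ± 0.13 to 677 ± 2.19 TPM (limma adjusted p = 5.42e-04). Spp1, the osteopontin gene, fell from 1105 ± 5.03 to 640.1 ± 43.04 TPM (0.00149) and Sox9 from 65.5 ± 8.85 to 48.9 ± 2.34 TPM (0.0271). Endothelial markers summed to 8.08 to 15.6 TPM, nearly all of it Esam, with Cdh5, Kdr, Tie1 and Cldn5 at 0. Macrophage markers summed to 1.63 to 3.09 TPM and fibroblast or stellate markers to 2.80 to 3.25 TPM. Among the macrophage markers, Csf1r stood at 0.345 ± 0.149 TPM in shCtrl and at 1.82 ± 0.139 TPM in shSafb. The part of these shifts in the junction results was not tested. In bulk RNA, a change in the number of cells that express a gene and a change in RNA per cell cannot be told apart.

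Of the 9 genes, 4 had a mean of at least 1 TPM over the libraries and were tested: Cldn2, Cldn12, Tjp1 and F11r. Of these, 3 were higher in shSafb, 0 were lower, and F11r did not pass the test (limma on log2 of scaled TPM plus 1, Benjamini-Hochberg adjusted p under 0.05 over all 13111 tested genes). For comparison, 21.9% of all tested genes were called higher and 22.4% lower. The values of both groups lay fully apart in 3 of the 4 genes, against 74.7% of all tested genes. Their median log2 change was 0.24, and that of all tested genes was 0.00164. The other 5 genes were near or at 0. The plot of TPM by library shows all 9.

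**Figure D1:**
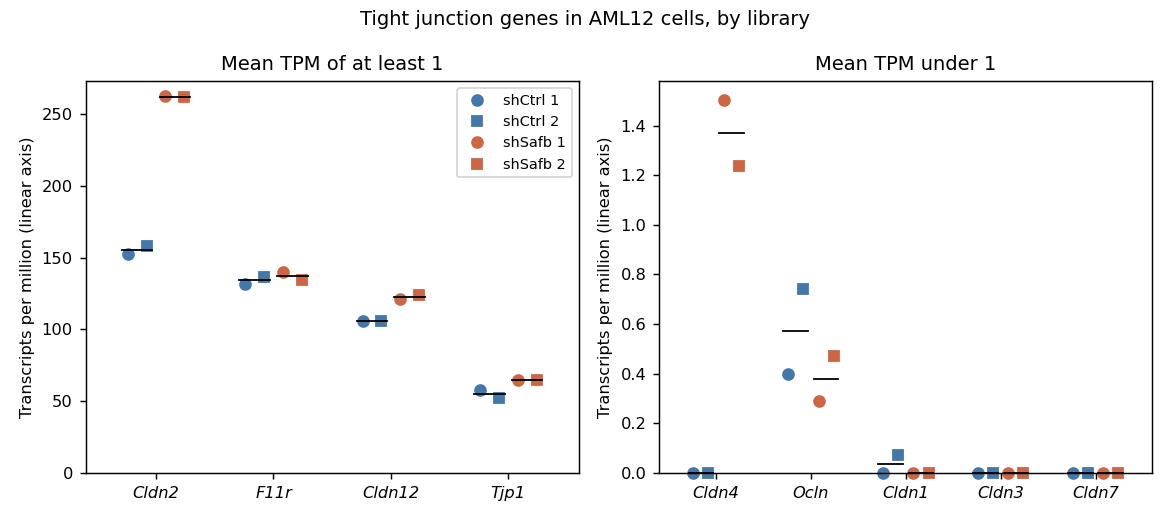
TPM of the 9 genes in each library, on linear axes with different ranges in the left and right panels; points are libraries (circle, replicate 1; square, replicate 2) and black lines are group means. Cldn2 sits at 153 and 158 TPM in shCtrl and at 263 and 262 TPM in shSafb, while Cldn3 and Cldn7 are at 0 throughout.

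Cldn2 had the highest level of the 9 genes, and Cldn4 was above 0 only in the shSafb libraries. Their upstream sequences are shown beside that of Cldn3, the neighbour of Cldn4 that was listed at 0 in every library. Each line gives the 250 bases before the RefSeq start on GRCm38.p6, 5′ to 3′ on the gene's strand. Capitals mark matches to the motifs searched, named in the text that follows.
Cldn2 (chrX:139800558-139800807, plus strand): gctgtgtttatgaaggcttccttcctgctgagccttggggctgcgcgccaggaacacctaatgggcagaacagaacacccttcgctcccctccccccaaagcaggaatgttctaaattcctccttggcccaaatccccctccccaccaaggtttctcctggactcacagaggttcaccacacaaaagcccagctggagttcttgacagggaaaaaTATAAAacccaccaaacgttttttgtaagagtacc
Cldn4 (chr5:134946935-134947184, minus strand): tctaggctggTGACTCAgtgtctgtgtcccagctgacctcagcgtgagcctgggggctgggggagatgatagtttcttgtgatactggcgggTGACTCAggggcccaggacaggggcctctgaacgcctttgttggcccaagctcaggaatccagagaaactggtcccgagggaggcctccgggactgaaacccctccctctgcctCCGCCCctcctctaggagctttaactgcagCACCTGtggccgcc
Cldn3 (chr5:134985964-134986213, plus strand): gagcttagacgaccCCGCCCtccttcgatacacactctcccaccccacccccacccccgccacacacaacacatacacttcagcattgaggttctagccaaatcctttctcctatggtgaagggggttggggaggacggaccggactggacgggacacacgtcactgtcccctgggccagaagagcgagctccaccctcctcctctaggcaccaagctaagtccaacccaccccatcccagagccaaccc

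Motifs were searched on both strands, and the matches shown do not overlap one another. The TATA box was searched as TATAAA and the GC box as GGGCGG. The E-box was searched as CACCTG and the AP-1 motif as TGACTCA. The Cldn2 stretch holds a TATA box 35 to 30 bases before the start. The Cldn4 stretch holds AP-1 motifs 240 to 234 and 158 to 152 bases before the start, a GC box at 44 to 39 and an E-box at 14 to 9. The Cldn3 stretch holds a GC box at 236 to 231. In full windows of 300 bases, which run to 50 bases after the start, the TATA box occurred in 13.6% of 32851 mouse promoter windows, the GC box in 35.7%, the E-box in 20.2% and the AP-1 motif in 5.20%. In these longer windows Cldn3 also held 1 E-box, and Cldn4 held 2 GC boxes and 2 E-boxes. Among the windows of the 9 genes, the TATA box occurred only in that of Cldn2 and the AP-1 motif only in those of Cldn4 and F11r. CpG observed over expected was 0.268 for Cldn2, 0.353 for Cldn3 and 0.324 for Cldn4, each under the median of 0.384 over all windows. It was 0.972 for Tjp1, 0.702 for F11r and 0.656 to 0.846 over the 3 starts of Cldn12. The Tjp1 window, at 65371195 to 65371494, lies inside the annotated span of the gene, and the 5′ end of that span was not read. A match describes the letters only, and no binding or chromatin was measured in these libraries.

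Cldn2, the gene of the cation and water channel, was the most abundant of the 9 in every library and had the largest change of the 4 tested genes. It stood at 153 and 158 TPM in the shCtrl libraries and at 263 and 262 TPM in the shSafb libraries. Both shSafb values lay more than 100 TPM above both shCtrl values, and the replicates of each group were close together. The mean rose from 155 ± 3.65 to 262 ± 0.597 TPM (SD over 2 libraries a group). This was a 1.69-fold rise and a log2 change of 0.78 ± 0.05 (SE; limma adjusted p = 0.00111). Cldn2 kept its call without each library in turn (limma adjusted p 0.00761 to 0.0111). Its mean over the 4 libraries was above that of 95.9% of tested genes. The gene (ENSMUSG00000047230) spans positions 139800828 to 139811386 of chromosome X (mm10, plus strand), and no annotated gene overlaps it.

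Cldn12 encodes a claudin that is known to lack the usual carboxy-terminal motif for binding ZO proteins. It was at 106 TPM in both shCtrl libraries and at 121 and 124 TPM in the shSafb libraries, so the groups did not overlap. The mean rose from 106 ± 0.129 to 123 ± 1.68 TPM, 1.16-fold (limma adjusted p = 0.0167, log2 change 0.23 ± 0.05 SE). This call was lost without shCtrl replicate 1 (limma adjusted p = 0.0612), shSafb replicate 1 (0.0693) or shSafb replicate 2 (0.0810), and in limma without its intensity trend (0.0506). Over 15 alternatives the limma adjusted p ran from 0.00850 to 0.0810. Cldn12 (ENSMUSG00000046798) spans positions 5489537 to 5514958 of chromosome 5 (minus strand).

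Cldn4, which encodes a tightening claudin, was listed at 0 in both shCtrl libraries and at 1.504 and 1.237 TPM in the shSafb libraries. With a mean of 0.685 TPM it was below the level needed for the test. When genes from a mean of 0.1 TPM were tested, Cldn4 was called higher (limma adjusted p = 0.00386), and it was also called with no filter (0.00725). Cldn4 entered those tests only through the shSafb libraries, so these p are no independent support. With shCtrl at 0 no fold can be given. Of 16 housekeeping genes, 0 were at 0 in any library, and the lowest value among them was 11.9 TPM. These levels are far above that of Cldn4, so they do not show whether a gene at its level could be listed at 0. The gene (ENSMUSG00000047501) spans positions 134945119 to 134946934 of chromosome 5 (minus strand).

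The remaining claudins of the set were absent or almost so. Cldn3 and Cldn7 were listed at 0 in all 4 libraries. Cldn1 was at 0.0703 TPM in shCtrl replicate 2 and at 0 in the other 3 libraries. These are claudins commonly found in epithelia, and Cldn1 and Cldn3 are known from hepatocytes in the liver. An antisense gene, Wbscr25, shares exonic sequence with Cldn3 and was also at 0.

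Because TPM is scaled by length, claudin transcripts could be added up. The table holds 35 claudin genes, of which 19 were at 0 in all libraries, 11 were above 0 but under 1 TPM in every library, and 2, Cldn2 and Cldn12, reached 10 TPM. Summed claudin TPM was 265 and 271 in shCtrl and 389 and 391 in shSafb. The mean sum was 268 ± 4.29 TPM in shCtrl and 390.2 ± 1.16 TPM in shSafb, 1.45-fold higher. The groups did not overlap, and the exact two-sided permutation test gave p = 0.333, the smallest that 2 against 2 libraries allow.

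Within that sum the balance differed between the groups. Cldn2 made up 57.6% and 58.2% of claudin TPM in the shCtrl libraries and 67.5% and 67.0% in the shSafb libraries. Cldn12 made up 39.9% and 39.1% in shCtrl and 31.2% and 31.7% in shSafb, although its own TPM was higher there. Cldn4 held 0.386% and 0.316% in shSafb. Claudins outside the set held 2.53% ± 0.129 in shCtrl and 0.988% ± 0.0653 in shSafb (SD, n = 2 each). The ratio of Cldn2 to Cldn12 TPM was 1.44 and 1.49 in shCtrl and 2.16 and 2.11 in shSafb, with groups that did not overlap (exact permutation p = 0.333, the smallest this design allows). The plot of claudin transcripts by gene shows that most of the added TPM was Cldn2.

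**Figure D2:**
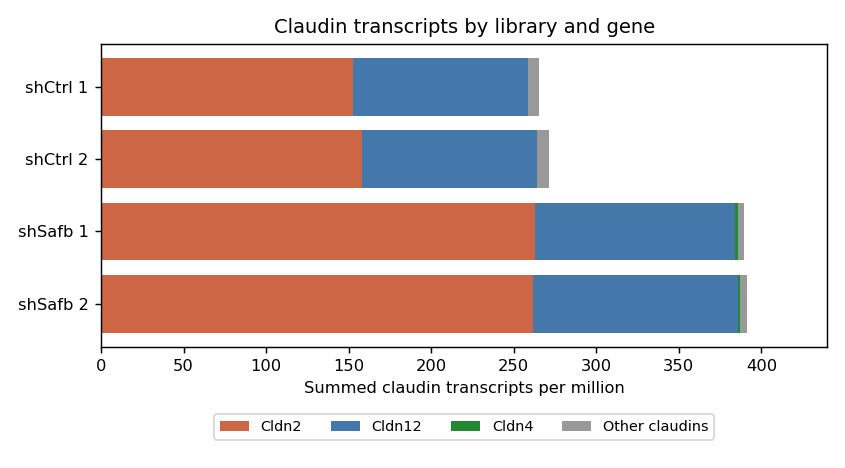
Summed claudin TPM in each library (horizontal axis, linear), divided by gene; 1 bar is 1 library. The bars end at 265 and 271 TPM in shCtrl and at 389 and 391 TPM in shSafb, and the Cldn2 section is longer in both shSafb libraries.

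Ocln and F11r, the membrane partners, had no call. Ocln was at 0.399 and 0.741 TPM in shCtrl and at 0.290 and 0.471 TPM in shSafb, so the groups overlapped and every library was under 1 TPM. Ocln (ENSMUSG00000021638, chromosome 13, 100496507 to 100552718, minus strand) was below the level needed for the test. When genes from a mean of 0.1 TPM were tested its limma adjusted p was 0.455. F11r, which encodes an immunoglobulin-type adhesion molecule of the junction, was by contrast abundant, at 132 and 136 TPM in shCtrl and 139.9 and 135 TPM in shSafb. The F11r values of the groups were interleaved, with a log2 change of 0.06 ± 0.06 (SE; limma adjusted p = 0.446). F11r (ENSMUSG00000038235) spans positions 171437535 to 171464603 of chromosome 1 (plus strand).

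Tjp1, the scaffold gene, was at 58.0 and 52.6 TPM in shCtrl and at 65.02 and 65.03 TPM in shSafb. Both shSafb values were above both shCtrl values, and the shCtrl libraries were further apart than the shSafb libraries. The Tjp1 mean rose from 55.3 ± 3.85 to 65.03 ± 0.00539 TPM, 1.18-fold (limma adjusted p = 0.0192, log2 change 0.26 ± 0.05 SE). This call was lost without shCtrl replicate 2 (limma adjusted p = 0.0691), shSafb replicate 1 (0.0827) or shSafb replicate 2 (0.0785), with a range of 0.0160 to 0.0827 over 15 alternatives. Tjp1 (ENSMUSG00000030516) spans positions 65296165 to 65527781 of chromosome 7 (minus strand).

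Claudins and scaffold were then set side by side. In both groups the order of levels was Cldn2, F11r, Cldn12 and Tjp1, and neighbours in this order did not overlap between libraries of the same group. Cldn2 was 2.64 and 3.01 times Tjp1 in shCtrl and 4.04 and 4.03 times Tjp1 in shSafb. It was 1.16 times F11r in both shCtrl libraries and 1.88 and 1.95 times F11r in shSafb. Cldn12 was 1.83 and 2.02 times Tjp1 in shCtrl and 1.87 and 1.90 times Tjp1 in shSafb, so that ratio overlapped between the groups. For the Cldn2 ratios, whose groups lay apart, the exact permutation p was again 0.333, and for the ratio of Cldn12 to Tjp1 it was 1.

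Tjp3, which encodes the related scaffold protein ZO-3 and was picked out after its values were seen, went from 2.97 ± 0.533 to 0.768 ± 0.0636 TPM (limma adjusted p = 0.00716). Tjp3 reached the mean needed for the test only through the shCtrl libraries, so this p is no independent support. Exons of Tjp3 overlap those of Apba3 on the other strand, and reads of both could be mixed if strand was not used in counting.

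A wider list gave the surrounding junction: 33 other membrane proteins and 29 plaque and polarity proteins, the latter being the proteins on the inner face of the membrane. Of these 62 genes, 37 were tested, and 6 were higher, 16 lower and 15 not called, beside 21.9% of all tested genes called higher and 22.4% called lower. Their median log2 change was -0.16, against 0.00164 over all tested genes. Of the 9 tested membrane genes, 2 were higher and 4 lower. Of the 28 tested plaque and polarity genes, 4 were higher and 12 lower, beside the same shares. The plot of log2 changes shows where the 4 tested genes of the set stand among them.

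**Figure D3:**
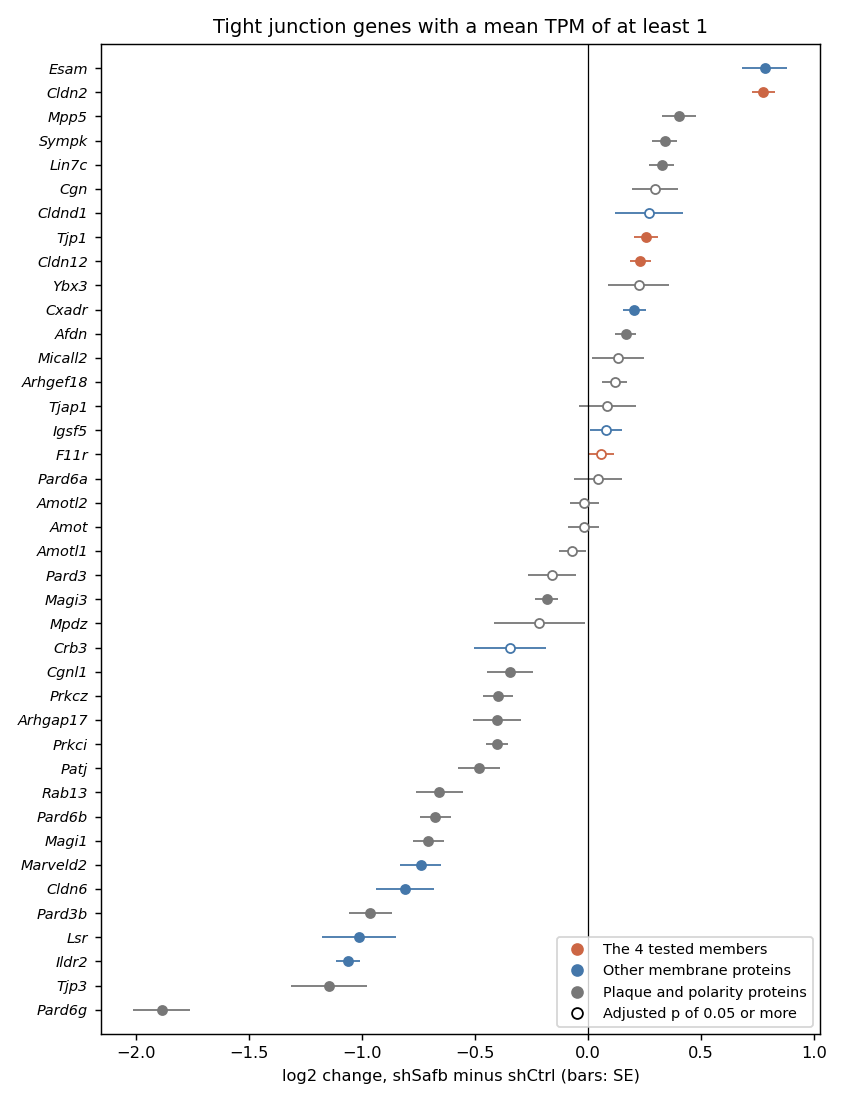
log2 change (shSafb minus shCtrl, on log2 of scaled TPM plus 1) of the 4 tested genes of the set and 36 of the 37 other tested tight junction genes, in order of size; bars are limma standard errors and open points have an adjusted p of 0.05 or more. Cldn2 is near the top at 0.78, F11r lies at 0.06, and Pard6g is lowest at -1.89.

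Among the membrane proteins, 4 belong to tricellular contacts, where the corners of 3 cells meet. Of these, 3 were tested and called lower, beside 22.4% of all tested genes, and Ildr1 was at 0 in all libraries. They were grouped after their values were seen, so nothing is read from the count. Marveld2, which encodes tricellulin, a relative of occludin, was at 7.82 and 7.58 TPM in shCtrl and 4.06 and 4.21 TPM in shSafb. It fell by 0.74 on the log2 scale (limma adjusted p = 0.00451). Lsr, which encodes angulin-1, was at 142 and 103 TPM in shCtrl and 63.6 and 53.2 TPM in shSafb, a log2 change of -1.01 ± 0.16 (limma adjusted p = 0.00958). Ildr2, a gene of the same angulin family, fell from 52.8 ± 0.91 to 24.3 ± 0.516 TPM (limma adjusted p = 7.97e-04). Lsr and Ildr2 share exonic sequence with antisense genes, of which the most abundant averaged 1.61 TPM.

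Cldn6, a claudin known from embryonic epithelia, was the only claudin outside the set in the test. It fell from 4.86 ± 0.103 to 2.31 ± 0.329 TPM (log2 change -0.81 ± 0.13, limma adjusted p = 0.00886). Esam and Cxadr, 2 immunoglobulin-type adhesion molecules like F11r, were higher: Esam rose from 8.05 ± 0.183 to 14.4 ± 1.61 TPM (limma adjusted p = 0.00517) and Cxadr from 50.8 ± 0.381 to 57.7 ± 0.536 TPM (0.0278). The Cxadr call was lost in 6 of 15 alternatives (limma adjusted p 0.0209 to 0.114), and its exons overlap Btg3 on the opposite strand.

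Genes of the PAR3, PAR6 and atypical protein kinase C complex, which sets the apical side of epithelial cells, numbered 7, of which 5 were called lower, beside 22.4% of all tested genes, and 0 higher. This grouping too was made after the values were seen, and nothing is read from its count. Pard6g fell from 13.2 ± 1.05 to 2.80 ± 0.464 TPM (log2 change -1.89 ± 0.12, limma adjusted p = 0.00111). Pard3b fell from 10.7 ± 1.02 to 4.88 ± 0.144 TPM and Pard6b from 16.9 ± 0.551 to 10.02 ± 0.0278 TPM (limma adjusted p = 0.00264 and 0.00293). The kinase gene Prkci fell from 77.5 ± 2.26 to 57.4 ± 1.61 TPM (limma adjusted p = 0.00445). Pard3 and Pard6a did not pass the test, at log2 changes of -0.16 ± 0.11 and 0.04 ± 0.11.

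In the Crumbs complex, also grouped after the values were seen, 2 of 4 tested genes were called higher and 1 lower, beside 21.9% and 22.4% of all tested genes. Pals1, listed in the table as Mpp5, rose from 13.3 ± 1.05 to 17.5 ± 0.541 TPM (limma adjusted p = 0.0144) and Lin7c from 40.7 ± 0.827 to 50.4 ± 1.91 TPM (0.0111), while Patj fell from 25.4 ± 1.65 to 17.6 ± 1.05 TPM (0.0154). Each of these 3 calls was lost without shSafb replicate 1, where the highest limma adjusted p was 0.0718. The Mpp5 call was also lost without shCtrl replicate 2 and without shSafb replicate 2. Of the other plaque genes, Magi1, a scaffold gene, fell from 57.7 ± 3.43 to 34.3 ± 2.33 TPM (limma adjusted p = 0.00258). Rab13, a small GTPase gene of junction traffic, fell from 20.4 ± 0.805 to 12.4 ± 1.34 TPM (0.00897). Sympk, which encodes symplekin, rose from 76.4 ± 0.574 to 95.3 ± 4.68 TPM (0.00958). Arhgap17 fell from 10.3 ± 1.42 to 7.36 ± 0.245 TPM, while Afdn rose from 91.7 ± 5.40 to 101.3 ± 1.30 TPM. On the opposite strand, exons of Lcmt1 (mean 40.2 TPM) overlap those of Arhgap17, and exons of Tcte2 (mean 6.85 TPM) overlap those of Afdn. Arhgap17 and Afdn, the afadin gene, were called at limma adjusted p of 0.0371 and 0.0445, and lost the call in 4 and 10 of 15 alternatives (0.0347 to 0.135 and 0.0319 to 0.162).

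Transcription factor genes known from epithelial cells were read beside these values, without a test of any link. Of 26 listed, 16 were tested, 4 were higher and 3 lower, beside 21.9% and 22.4% of all tested genes. Ehf rose from 8.67 ± 0.54 to 15.7 ± 1.88 TPM (limma adjusted p = 0.00527), Klf4 from 1.21 ± 0.0826 to 2.91 ± 0.14 TPM (0.00857) and Elf3 from 10.2 ± 1.67 to 14.7 ± 0.0674 TPM (0.0369). Tcf3, an E-box binding factor gene, fell from 41.3 ± 3.08 to 22.1 ± 0.267 TPM (limma adjusted p = 0.00139) and Gata6 from 23.6 ± 2.11 to 15.2 ± 0.632 TPM (0.00584), and Gata6 shares exonic sequence with 1010001N08Rik on the other strand. Twist2 fell from 5.67 ± 0.607 to 3.54 ± 0.636 TPM (0.0369). The calls of Elf3 and Twist2 were lost in 6 of 15 and 5 of 14 alternatives, with limma adjusted p up to 0.112 and 0.138. Hnf4a, the main hepatocyte nuclear receptor gene, had a log2 change of -0.03 ± 0.04 (limma adjusted p = 0.547).

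The nearest coding genes on either side were read for Cldn2 and Cldn4. Ripply1, the nearest coding gene to the left of Cldn2 at 18.5 kb, was at 0.188 and 0.360 TPM in shCtrl and at 2.85 and 2.80 TPM in shSafb (log2 change 1.60 ± 0.15, limma adjusted p = 0.00251). Ripply1 reached the mean needed for the test only through the shSafb libraries, so this p is no independent support. Ripply1 encodes a transcriptional corepressor known from somite formation. Morc4, 10.2 kb to the right of Cldn2, was at 3.32 and 3.27 TPM in shCtrl and 2.95 and 2.88 TPM in shSafb (log2 change -0.11 ± 0.11, limma adjusted p = 0.436). Around Cldn4, Mettl27 at 2.48 kb had a log2 change of -0.18 ± 0.12 (limma adjusted p = 0.296). Cldn3, 39.3 kb from Cldn4, was at 0, and Abhd11 beyond it had a log2 change of -0.23 ± 0.15 (limma adjusted p = 0.265).

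**Figure D4:**
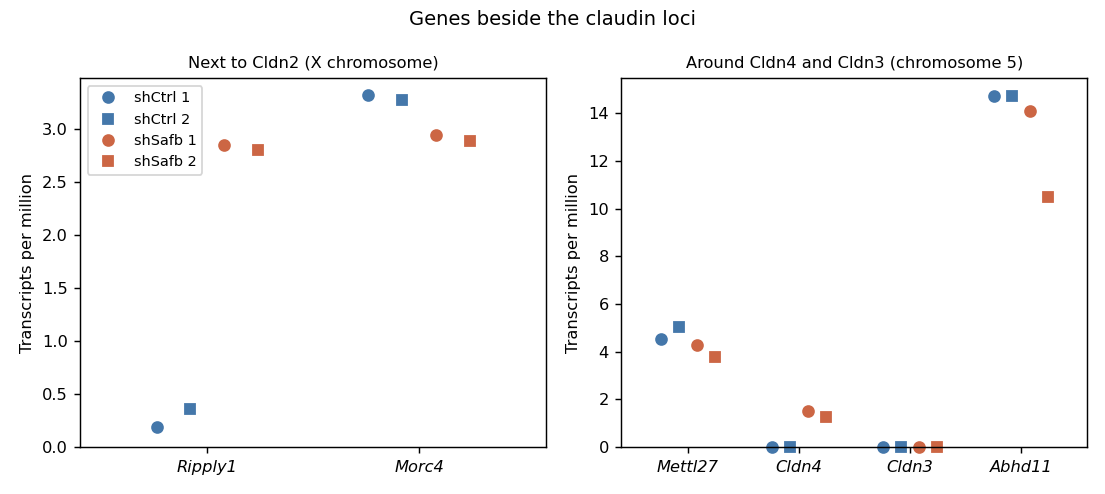
TPM by library (linear axes with different ranges) of the coding genes on either side of Cldn2 and around Cldn4 and Cldn3, in chromosome order; points are libraries. Ripply1 lies under 0.4 TPM in shCtrl and at 2.85 and 2.80 TPM in shSafb, and Cldn4 is above 0 only in shSafb.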

How the data were processed

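The authors deposited TPM, 1 value per gene and library, in a table of 52200 rows. HISAT2, HTSeq, StringTie and DESeq2 with mm10 are named in the submitters' processing notes, without versions or roles. Per the labels' protocols, stranded total RNA libraries were made after ribosomal RNA removal. Whether counting used strand is not stated in what was read here. Repeated rows of 6 identifiers were added together, and positions were taken by identifier from GENCODE M21 (mm10), which holds 52045 of 52192.

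Testing covered the 13111 genes averaging 1 TPM or more. Libraries were divided by median ratios to the geometric mean (0.991 to 1.03), and log2(scaled TPM + 1) was fitted with limma 3.58.1 in R 4.3.3 (two-sided, group as the only term, intensity trend, Benjamini-Hochberg over all tested genes, with 2.61 prior and 2 residual degrees of freedom). The fit was also run on simulated data in which far fewer genes changed than were called here, so it does not give the error rate here. Fold changes are of mean TPM; log2 changes understate low genes. Groups came from sample titles. The depth is unknown, so no counting interval is given.

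The genes, lists and rule for naming genes were chosen with earlier results of these data known. The rule named the 9 genes, Safb, called members of the 2 junction lists with a mean of at least 2 TPM (up to 8 per direction and list), up to 5 transcription factor genes per direction, the nearest coding genes, and the 3 genes most like the leading one. Genes outside it, given as context, are Tjp3, Pard3, Pard6a, Ildr1, Hnf4a and the cell type markers Krt19, Spp1, Sox9, Epcam, Cftr, Trf, Alb, Apoa1, Fgb, Csf1r and Tat. Of 34 symbols in the list of membrane genes 33 were matched; Cldn25 is not analysed here. Some listed genes are counted but not reported here by name. Promoter sequences are RefSeq's on GRCm38.p6 (13 windows for the 9 genes). Python 3.11.15, pandas 2.3.3 and matplotlib 3.10.9 were used. Where 1 library was left out, the lone library of its group was assumed to vary like the other group. Alternatives covered pseudocount, filter, scaling, variance model, a replicate block and each library left out.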

Additional observations from a re-analysis of the deposited data

How the results depend on the processing

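Cldn2 was higher and past the threshold in all 15 alternatives (log2 change 0.72 to 0.82), and the direction held for Cldn12 and Tjp1 in all of them. The call of Cldn12 was lost in limma without the trend (0.23, limma adjusted p = 0.0506); leaving out 1 library gave 0.20 to 0.25 for Cldn12, 0.21 to 0.29 for Tjp1 and -0.000174 to 0.0996 for F11r, which turned to -0.000174 without shCtrl replicate 1. Higher genes of the set numbered 1 to 2 with 1 library left out (1 without either shSafb library), and 4 with the lower filters, which let in Cldn4. Over the wider list, 2 to 6 were higher and 12 to 15 lower with 1 library left out (main counts 6 and 16). Over all genes, 1768 to 2124 were higher and 1961 to 2186 lower, against 2867 and 2938; fewer libraries were fitted. Claudin TPM summed to 1.48-fold when scaled by the median ratio, an alternative chosen after seeing the data, and to 1.44-fold to 1.47-fold with 1 library left out. Same-numbered libraries did not deviate together (Pearson's r of -0.0641 across 13111 genes). This compares only the replicate difference of each group, so it cannot show whether same-numbered libraries shared a culture or batch. With a replicate block, 2540 genes were higher and 2686 lower, 3 of the set were higher, and the limma adjusted p was 0.00369 for Cldn2, 0.0413 for Cldn12 and 0.0426 for Tjp1. Cldn1, Cldn3, Cldn4, Cldn7 and Ocln were below the filter, so they had no main value against which to compare alternatives; with no filter the limma adjusted p was 0.00725 for Cldn4, 0.489 for Ocln and 0.524 for Cldn1. Cldn4 entered the fits with lower filters only through the shSafb libraries, so its p and its place in the count there are no independent support. TPM keeps no depth, so how far a listed 0 limits the level of Cldn1, Cldn3, Cldn4 or Cldn7 cannot be given.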

Other observations

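Marveld2 lies 43.2 kb from Ocln on chromosome 13 and fell, while Gtf2h2, 3.93 kb on the other side of Ocln, had a log2 change of -0.06 ± 0.08 (limma adjusted p = 0.562). Elp5, 0.336 kb from Cldn7, averaged 47.7 TPM in shCtrl and 47.98 TPM in shSafb beside a Cldn7 listed at 0. Next to Tjp1, Tarsl2 fell from a mean of 23.5 to 17.8 TPM (limma adjusted p = 0.0116), the opposite direction to Tjp1. Alyref2, 38.9 kb from F11r, fell from a mean of 6.77 to 5.10 TPM (limma adjusted p = 0.0413), while F11r had no call. The remaining nearest coding genes are not given here.

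Over the 4 libraries, the genes with values most like Cldn2 among 7931 coding genes with a mean of at least 10 TPM were Atp6v1f, Junb and Hist1h2bg (Euclidean distances of 0.0138, 0.0275 and 0.0350 in centred log2 units). Atp6v1f was at 211 and 219 TPM in shCtrl and 366 and 365 TPM in shSafb, and Junb at 679.6 and 691 TPM in shCtrl and 1177 and 1155 TPM in shSafb.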
